A study of Saccharomyces cerevisiae with 12 samples.

Results

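The genes described here are 8 *S. cerevisiae* genes of zinc uptake and zinc response: the plasma membrane zinc transporter genes *ZRT1* and *ZRT2*, the activator gene *ZAP1*, the cell surface gene *ZPS1* and the 4 *IZH* membrane protein genes *IZH1*, *IZH2*, *IZH3* and *IZH4*. They were taken by name and function from the 6400 genes named in the count tables, and all 8 passed the filter on low counts. *IZH3* was chosen by its CPM levels in the 4 strains, known to be highest in *cyc8* and *tup1 cyc8*, so its values are given as a description with no test. The other 7 genes were tested. The 8 genes and the lists of other genes used below were chosen with earlier results of these data known, so the choice was not independent of the data.

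Total RNA was sequenced from 4 strains with 3 biological replicates each, 12 libraries in all, to ask how the transcriptomes of mutants lacking parts of the Tup1-Cyc8 co-repressor differ. The strains were wt BY4741, a haploid *MATa* laboratory strain with the *his3*, *leu2*, *met15* and *ura3* deletion alleles, and 3 derivatives of it. *tup1* and *cyc8* each had the named gene replaced by the kanamycin resistance cassette KanMX4, and *tup1 cyc8* had *TUP1* replaced by KanMX4 and *CYC8* by *URA3*. Each strain had grown in YPD, a rich medium, with 2% glucose and was collected in log phase at an OD600 of 0.6 to 0.8, with no zinc treatment. Each mutant is a single constructed strain, so the replicates measure the spread between cultures of that strain.

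In yeast, Zap1p senses zinc and activates its targets when zinc is scarce. It binds the zinc-responsive element (ZRE) in their promoters. Zrt1p is the high-affinity and Zrt2p the low-affinity transporter that carries zinc into the cell, Zps1p is a putative GPI-anchored cell surface protein, and *ZAP1* itself is a Zap1 target. The Izh proteins belong to the PAQR family of membrane proteins, which also holds the human adiponectin receptors. Izh2p is reported to lower *ZRT1* transcription through a short promoter sequence, CCCTC, called the Izh2-responsive element (IzRE). Tup1p and Cyc8p do not bind DNA themselves and are brought to promoters by sequence-specific repressors.

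The promoter sequences of the 8 genes were searched for letter matches to the Zap1 element. The 500 bases before each start codon were read from the RefSeq R64 genome and searched on both strands for the ZRE, a palindrome of the half-sites ACCTT and AAGGT with any 1 base between them. An exact match stood before 1 of the 8 genes, *ZRT1*, and before 0.15% of the 6000 genes whose promoters were searched. Allowing 1 mismatch, 5 of the 8 genes had a match, against 1.97% of all genes. These were *ZRT1*, *ZRT2*, *ZAP1*, *ZPS1* and *IZH1*, whereas *IZH2*, *IZH3* and *IZH4* had none in this window. The next gene upstream lies 884 bases from *IZH2*, 533 from *IZH3* and 1316 from *IZH4*. The bases beyond the window were not searched, so a site there would be missed. Each match is shown with its 9 flanking bases on either side, with the 11 bases of the match in capitals.
ZRT1, bases -213 to -185: acatatttgACCTTGAAGGTcatggaaag
ZRT1, bases -328 to -300: accaaagatACCCTCAAGGTtctcatctg
ZRT2, bases -320 to -292: agggacataACCCTAAAGGTtatatgcga
ZRT2, bases -271 to -243: tttttcacaACCTTTAGGGTacattgccc
ZAP1, bases -153 to -125: cagtcatctACCCTAAAGGTcatgatgaa
ZPS1, bases -338 to -310: ttataattgACCTTCAGGGTtaggaccct
ZPS1, bases -323 to -295: agggttaggACCCTGAAGGTtttttgtag
IZH1, bases -426 to -398: tatcatgcaACCTTTAGGGTccaagccct

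The IzRE, CCCTC on either strand, stood before 2 of the 8 genes, *ZRT1* and *ZPS1*, and before 36.3% of all genes. In *ZRT1* it lies inside the upstream ZRE match, so the same bases count for both motifs. The promoters of these 2 genes are shown at greater length because their levels moved the most among the 7 tested genes. Both windows run from base -350 to base -51, 5′ to 3′, with ZRE and IzRE matches in capitals. The *ZRT1* window is chrVII:20628-20927 on the plus strand of R64, and the *ZPS1* window is chrXV:34308-34607 on the plus strand.
ZRT1: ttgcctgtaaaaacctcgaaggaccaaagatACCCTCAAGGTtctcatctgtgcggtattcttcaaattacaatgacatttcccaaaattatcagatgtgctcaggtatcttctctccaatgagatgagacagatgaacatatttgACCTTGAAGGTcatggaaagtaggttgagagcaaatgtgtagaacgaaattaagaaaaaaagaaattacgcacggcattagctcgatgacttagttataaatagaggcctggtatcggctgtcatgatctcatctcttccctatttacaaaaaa
ZPS1: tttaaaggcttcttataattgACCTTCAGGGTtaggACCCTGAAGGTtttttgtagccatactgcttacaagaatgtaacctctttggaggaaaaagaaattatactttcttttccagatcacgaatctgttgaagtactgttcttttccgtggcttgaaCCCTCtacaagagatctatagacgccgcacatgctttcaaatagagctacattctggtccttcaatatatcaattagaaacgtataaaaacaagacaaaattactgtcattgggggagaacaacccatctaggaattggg
A match is only a match of letters, and binding was not measured in these files.

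**Figure D1:**
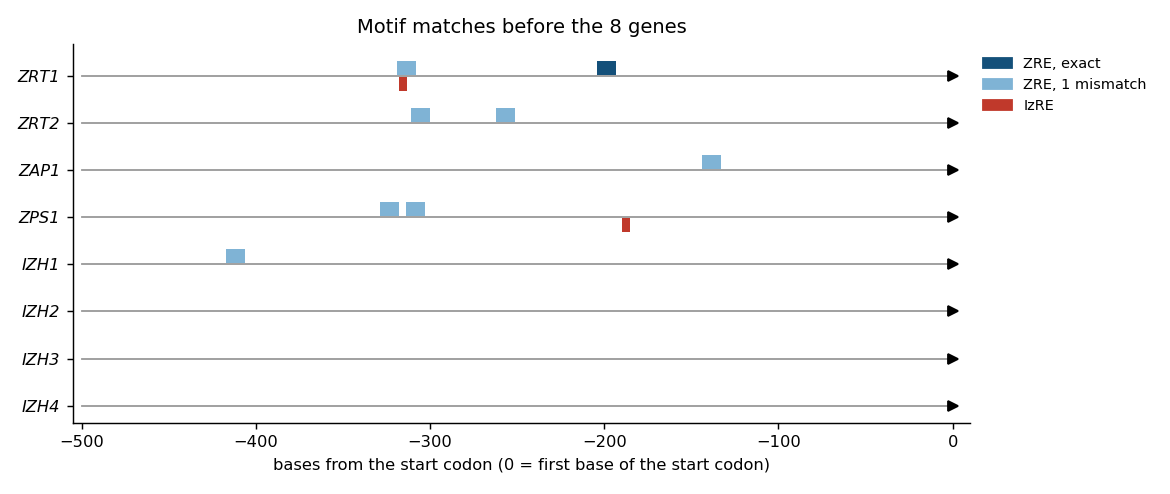
Positions of ZRE matches (dark blue exact, light blue with 1 mismatch) and IzRE matches (red) in the 500 bases before the start codon (arrow) of each gene, plotted as bases from the start codon. *ZRT1* holds the exact ZRE match, 5 of the 8 genes hold a match with at most 1 mismatch, and *IZH2*, *IZH3* and *IZH4* hold neither motif in this window.

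The libraries held between 12643361 and 17898833 counts (median 15481309). Levels are given as CPM, which puts libraries on a common size with TMM factors, a method that allows for differences in RNA composition. *TUP1* had 16.9 to 20.8 CPM in the libraries of *tup1* and 19.5 to 21.5 in those of *tup1 cyc8*, against 455 to 480 in wt. *CYC8* had 7.31 to 9.33 CPM in *cyc8* against 181 to 198 in wt, but 79.3 to 88.3 in the libraries labelled *tup1 cyc8*. *URA3*, the marker of that deletion, had 39.2 to 48.2 CPM there and at most 0.157 CPM in any other library. The *CYC8* level alone thus did not match a complete deletion in these libraries, and *tup1 cyc8* or double mutant below means the libraries so labelled. *LEU2* and *MET15* (listed as *MET17*) had 0 counts in all 12 libraries. The *MATa* gene *STE2* had 471 to 538 CPM in wt and was lowest in *cyc8*, at 159 to 168. *MFA1*, also a *MATa* gene, had 106 to 116 CPM in wt and 15.4 to 33.8 in *cyc8*, whereas *MFA2* had 399 to 468 and 402 to 478. *STE3*, expressed in the opposite mating type, had at most 3.15 CPM in any library. A pair of libraries stood apart from their own replicates over all genes, *cyc8* replicate 1 and wt replicate 3. The root mean square distance in log2 CPM from *cyc8* replicate 1 to its replicates was 0.50 on average, against 0.21 between the other two, and that from wt replicate 3 was 0.42 against 0.23.

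At the 8 genes, wt replicate 3 also stood apart, and *cyc8* replicate 1 did so mainly at *ZPS1* and *IZH4*. wt replicate 3 was the lowest wt library for 7 of the 8 genes, every one but *IZH3*, and the median log2 difference from the mean of its replicates was -0.75. Over all genes kept, this library was the lowest wt library for 40.0%, with a median log2 difference of 0.01. Its *ZRT1* level was 0.24 times the mean of the other wt libraries, and those of *IZH4*, *ZAP1*, *ZPS1* and *IZH2* were 0.51 to 0.58 times. Among 7 other zinc transporter genes, it was the lowest wt library for 5 and the highest for 1, with *FET4* at 0.39 times and *COT1* at 0.60 times its replicates. Among 13 other genes known to be raised by Zap1, it was the lowest for 4 and the highest for 8, with a median log2 difference of 0.10. The low levels thus did not extend to those genes as a set. *cyc8* replicate 1 was the lowest *cyc8* library for 5 of the 8 genes and the highest for 2, against 43.4% lowest and 43.4% highest over all genes kept. Its *ZPS1* level was 0.12 times and its *IZH4* level 0.14 times the mean of its replicates. The part that culture differences play in these library values was not tested. Each result below is therefore read with and without these libraries where they change it. Both were picked out from these data, and leaving 1 out leaves 2 libraries in its strain.

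**Figure D2:**
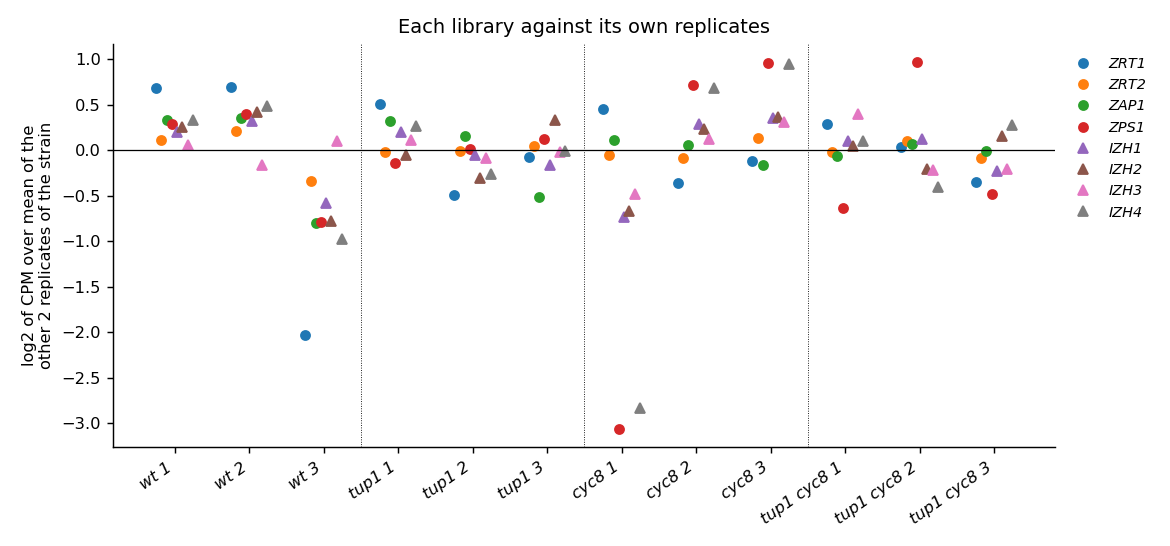
For each of the 12 libraries, the log2 ratio of a gene's CPM to the mean of the other 2 replicates of its strain (circles *ZRT1*, *ZRT2*, *ZAP1* and *ZPS1*, triangles the *IZH* genes). wt replicate 3 lies below 0 for 7 of the 8 genes, lowest for *ZRT1*, and *cyc8* replicate 1 lies lowest for *ZPS1* and *IZH4*.

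*ZRT1* (YGL255W, R64 chromosome VII, 20978 to 22108, plus strand), which encodes the high-affinity zinc transporter, had its lowest mean in *cyc8* and its highest in *tup1 cyc8*. It had 275, 276 and 67.2 CPM in wt and 511, 323 and 396 in *tup1*, with 162, 111 and 125 in *cyc8* and 720, 644 and 537 in *tup1 cyc8*. All *tup1* libraries therefore lay above all *cyc8* libraries, and the double mutant lay above both. The means were 206 ± 120 in wt and 410 ± 94.7 in *tup1*, with 133 ± 26.0 in *cyc8* and 634 ± 92.2 in *tup1 cyc8* (CPM, mean and SD over n = 3 libraries per strain). *ZRT1* was lower in *cyc8* than in *tup1*, with a log2 fold change of -1.63 (SE 0.40, padj = 0.0092). It was 4.77-fold higher in *tup1 cyc8* than in *cyc8*, a log2 fold change of 2.25 (SE 0.40, padj = 0.00358). The double mutant and *tup1* were not separated by the test (0.63, padj = 0.238), although their libraries did not overlap. SE is the standard error of the log2 fold change and padj the p of edgeR's quasi-likelihood test, adjusted with the Benjamini-Hochberg method over all genes tested.

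Against wt, the *ZRT1* changes turned on wt replicate 3, whose level was the lowest of all 12. With every library, the log2 fold change was 0.97 in *tup1* (SE 0.46, padj = 0.16), -0.63 in *cyc8* (SE 0.47, padj = 0.308) and 1.63 in *tup1 cyc8* (SE 0.46, padj = 0.0172). None passed the limits of an absolute log2 fold change of at least 1 and an adjusted p of at most 0.01. Without wt replicate 3, the wt mean was 275 CPM over the 2 libraries left, and *ZRT1* was past the limits in *cyc8* and in *tup1 cyc8*, in opposite directions. It then changed by -1.05 in *cyc8* (padj = 0.00479) and by 1.21 in *tup1 cyc8* (padj = 0.000202), with 0.57 in *tup1* (padj = 0.0377). The interaction, which is the double mutant change minus the sum of the single mutant changes, was 1.26 (padj = 0.142) with all libraries and 1.68 (padj = 0.000955) without that one. wt replicate 3 was picked out in part by its low *ZRT1* level, and the 2 wt libraries left lie close together. The adjusted p values without it are therefore a description. The lower level in *cyc8* than in *tup1* was lost, at adjusted p values up to 0.0433, in 9 of the 12 leave-one-out fits (a fit without 1 library), namely each *tup1* and each *tup1 cyc8* library, *cyc8* replicates 2 and 3, and wt replicate 1. The difference between *tup1 cyc8* and *cyc8* was lost in 3 of these fits, without *cyc8* replicate 2 (2.11, padj = 0.0241), *cyc8* replicate 3 (2.19, padj = 0.0225) or *tup1 cyc8* replicate 1 (2.13, padj = 0.0137).

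*ZRT2* (YLR130C, chromosome XII, 402794 to 404062, minus strand), the low-affinity transporter gene, varied little. It had 152, 159 and 123 CPM in wt and 142, 143 and 146 in *tup1*, with 105, 104 and 115 in *cyc8* and 110, 116 and 107 in *tup1 cyc8*. All *cyc8* and *tup1 cyc8* libraries lay below every wt and *tup1* library. The log2 fold change was -0.42 in *cyc8* (padj = 0.0373) and -0.37 in *tup1 cyc8* (padj = 0.03), neither of which passed the limits, and -0.03 in *tup1*. TPM is scaled to gene length and library size. In wt, *ZRT2* had 146 ± 20.3 TPM and *ZRT1* had 233 ± 137 (SD, n = 3), and this overlap rested on wt replicate 3. In CPM, *ZRT1* was above *ZRT2* in wt replicates 1 and 2 (275 and 276 against 152 and 159). It was below *ZRT2* in replicate 3 (67.2 against 123). In *tup1 cyc8*, *ZRT1* was at 482 ± 81.3 TPM and *ZRT2* at 75.1 ± 6.69 (SD, n = 3).

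*ZAP1* (YJL056C, chromosome X, 330431 to 333073, minus strand), which encodes the zinc-sensing activator of the system, had 50.2, 50.6 and 28.8 CPM in wt and 53.2, 49.3 and 35.7 in *tup1*. It had 47.2, 46.2 and 41.6 CPM in *cyc8* and 39.8, 42.4 and 40.8 in *tup1 cyc8*. The libraries of every pair of strains overlapped. Its log2 fold change was 0.07 in *tup1* (SE 0.23, padj = 0.849), 0.06 in *cyc8* (SE 0.21, padj = 0.828) and -0.06 in *tup1 cyc8* (SE 0.20, padj = 0.805). The sign in *tup1* and in *cyc8* flipped with scaling to library size only, to -0.04 and -0.29.

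*ZPS1* (YOL154W, chromosome XV, 34658 to 35407, plus strand), a Zap1 target that is also induced at alkaline pH, rose in all 3 mutants and showed the largest changes of the 7 tested genes. It had 15.6, 16.4 and 9.24 CPM in wt and 191, 206 and 216 in *tup1*. In *cyc8* it had 25.4, 202 and 220 CPM, and in *tup1 cyc8* 34.4, 70.0 and 37.5. Every mutant library lay above every wt library, but *cyc8* replicate 1 lay far below its replicates and below every double mutant library. The mean rose 14.9-fold in *tup1*, 10.8-fold in *cyc8* and 3.44-fold in *tup1 cyc8*. The log2 fold change was 3.88 in *tup1* (SE 0.21, padj = 3.24e-06), 3.44 in *cyc8* (SE 0.73, padj = 0.00846) and 1.80 in *tup1 cyc8* (SE 0.31, padj = 0.00202).

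The mean *ZPS1* level of the double mutant was the lowest of the 3 mutants, although *cyc8* replicate 1 lay below it, and the interaction was -5.54 (SE 0.82, padj = 0.000418). This means that the double mutant change was smaller than the sum of the single mutant changes. *tup1 cyc8* against *tup1* gave -2.11 (SE 0.56, padj = 0.0151) in the fit of 12 libraries, with the 47.3 ± 19.7 CPM of the double mutant below the 204 ± 12.5 of *tup1* (SD, n = 3) and no overlap of libraries. In a fit of these 6 libraries alone it was -2.13 (padj = 0.000219), and with replicate numbers blocked it was -2.20 (padj = 0.000101). Both of those fits were chosen after seeing the data. The labels give no pairing of these cultures, and the block rests on a likeness of same-number libraries seen in these data. That likeness cannot by itself establish a pairing. *cyc8* and *tup1* were not separated by the test (-0.46, padj = 0.543).

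The *ZPS1* call in *cyc8* depended on single libraries. It was lost in 5 of the 6 leave-one-out fits, with adjusted p values of 0.0276 to 0.0335, and kept without *cyc8* replicate 1 (3.92, padj = 2.94e-05). Without that library, *tup1 cyc8* was lower than *cyc8* by a log2 fold change of -2.18 (padj = 0.000233), against -1.65 (padj = 0.0797) with all libraries. The interaction stayed past the limits in every leave-one-out fit, at -6.07 to -5.16.

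**Figure D3:**
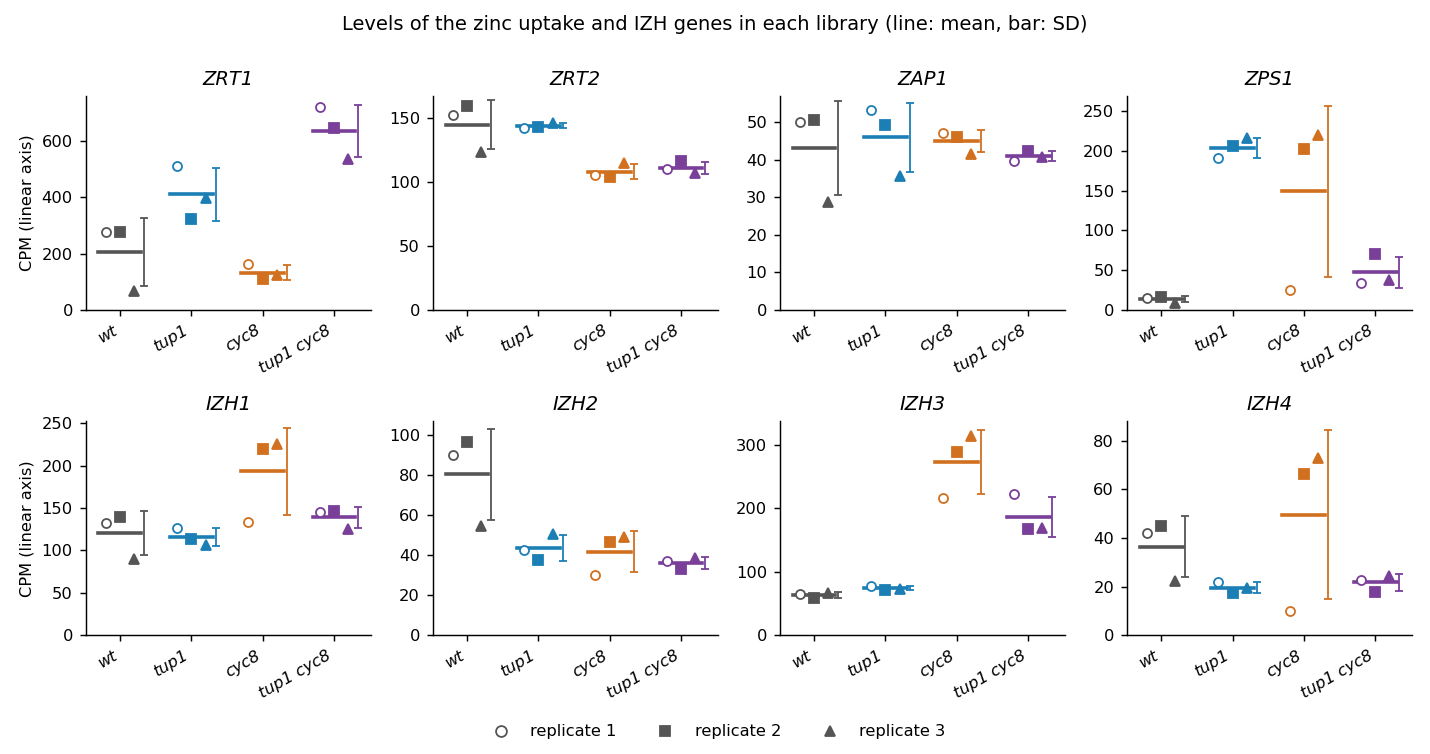
CPM of the 8 genes in each of the 12 libraries on linear axes from 0, with the mean (line) and SD (bar) of each strain, and replicates 1, 2 and 3 as open circles, squares and triangles. *ZRT1* is highest in *tup1 cyc8*, *ZPS1* highest in *tup1* and 2 *cyc8* libraries, and *IZH3* highest in *cyc8* and *tup1 cyc8*.

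*IZH3* (YLR023C, chromosome XII, 185498 to 187129, minus strand), a gene induced in zinc deficiency, is the member whose levels were known when the genes were chosen. It had 65.0, 58.6 and 66.1 CPM in wt and 77.5, 70.9 and 72.9 in *tup1*. It had 216, 289 and 314 CPM in *cyc8* and 223, 168 and 169 in *tup1 cyc8*. All *cyc8* and *tup1 cyc8* libraries lay above all wt and *tup1* libraries, the lowest of them, at 168, being over the highest *tup1* library, at 77.5. The *tup1* libraries also lay above every wt library, by a smaller margin. The mean was 63.2 ± 4.09 in wt and 73.8 ± 3.42 in *tup1*, with 273 ± 50.7 in *cyc8* and 187 ± 31.2 in *tup1 cyc8* (CPM, mean and SD over n = 3 libraries per strain). The log2 fold change from wt was 0.20 in *tup1* (SE 0.10), 2.11 in *cyc8* (SE 0.16) and 1.57 in *tup1 cyc8* (SE 0.13), so *cyc8* had the highest mean while its libraries overlapped those of the double mutant. Scaling to library size only gave 1.75 in *cyc8* and 1.10 in *tup1 cyc8*. wt replicate 3, the lowest wt library for the other 7 genes, was the highest for *IZH3*. No ZRE or IzRE match stood in the 500 bases before its start codon. The 3 genes whose centred log2(CPM + 1) differed least from that of *IZH3* over the 12 libraries were *CYC3*, *LPX1* and *ADI1*, at root mean square differences of 0.19, 0.19 and 0.19, against a median of 0.94 over all 5994 other genes. *CYC3* had 21.5 ± 4.54 CPM in wt and 29.4 ± 1.25 in *tup1* (SD, n = 3). It had 96.8 ± 19.6 CPM in *cyc8* and 72.4 ± 4.70 in *tup1 cyc8*. No other member came that close to *IZH3*, the nearest being *IZH1* at 0.66.

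*IZH2* (YOL002C, chromosome XV, 323411 to 324364, minus strand), the best known of the family as a receptor for the plant protein osmotin, had lower levels in all 3 mutants and passed the test in *tup1 cyc8*. It had 90.3, 96.8 and 54.5 CPM in wt and 42.4, 37.8 and 50.7 in *tup1*, with 29.9, 46.4 and 49.1 in *cyc8* and 37.1, 33.0 and 38.8 in *tup1 cyc8*. Every mutant library lay below every wt library, and the mutants overlapped one another. Only the *tup1 cyc8* change passed the limits, at -1.14 (SE 0.21, padj = 0.0025), against -0.90 in *tup1* (SE 0.21, padj = 0.0163) and -0.95 in *cyc8* (SE 0.26, padj = 0.0243). Leaving out wt replicate 3 brought all 3 past the limits, at -1.10 (padj = 0.000271), -1.16 (padj = 0.00761) and -1.36 (padj = 2.78e-05). The *tup1 cyc8* call was lost without wt replicate 2 (-0.99) and without each of the *tup1 cyc8* libraries (padj = 0.011 to 0.014). No difference between mutants passed, with -0.20 for *tup1 cyc8* against *cyc8* and -0.06 for *cyc8* against *tup1*.

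*IZH4* (YOL101C, chromosome XV, 126982 to 127920, minus strand), a paralog of *IZH1* whose expression responds to fatty acids and zinc, had 42.2, 44.9 and 22.1 CPM in wt and 21.9, 17.2 and 19.4 in *tup1*. In *cyc8* it had 9.73, 66.2 and 72.9 CPM, and in *tup1 cyc8* 22.6, 17.9 and 24.5. The *tup1* libraries all lay below the wt libraries by a narrow margin, and the *cyc8* libraries spanned from below to above wt. No comparison passed the limits, at -0.92 in *tup1* (SE 0.25, padj = 0.0285), 0.44 in *cyc8* (SE 0.63, padj = 0.594) and -0.74 in *tup1 cyc8* (SE 0.26, padj = 0.0416). Without wt replicate 3, *IZH4* was past the limits in *tup1* (-1.16, padj = 0.000147) and in *tup1 cyc8* (-1.0, padj = 0.00065). Without *cyc8* replicate 1, it was higher in *cyc8* than in *tup1* by 1.84 (padj = 0.000113) and its change from *cyc8* to *tup1 cyc8* was -1.71 (padj = 0.00052), against 1.34 (padj = 0.0646) and -1.19 (padj = 0.158) with all libraries.

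*IZH1* (YDR492W, chromosome IV, 1434924 to 1435874, plus strand), a direct Zap1 target, had 132, 139 and 90.4 CPM in wt and 127, 113 and 107 in *tup1*, with 134, 220 and 226 in *cyc8* and 145, 147 and 125 in *tup1 cyc8*. *cyc8* replicates 2 and 3 were the highest of the 12 libraries, and *cyc8* replicate 1 lay within the wt range. The log2 fold change was 0.68 in *cyc8* (SE 0.24, padj = 0.0545), -0.08 in *tup1* (padj = 0.772) and 0.22 in *tup1 cyc8* (padj = 0.291), and the last became -0.25 with scaling to library size only. In *cyc8* against *tup1*, where no libraries overlapped, it was 0.74 (padj = 0.0155), which passed neither limit.

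**Figure D4:**
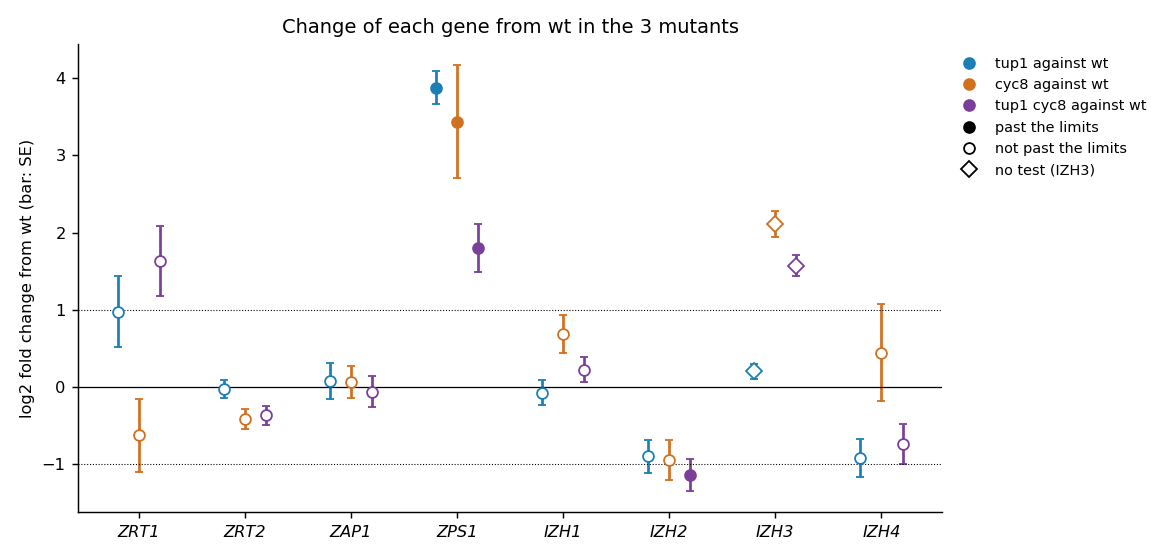
Log2 fold change of each gene from wt in *tup1* (blue), *cyc8* (orange) and *tup1 cyc8* (purple), with the standard error as bars and dotted lines at 1 and -1. Filled points passed both limits, open circles did not, and the diamonds of *IZH3* carry no test. *ZPS1* passed in all 3 mutants and *IZH2* in *tup1 cyc8*.

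Counted over the 7 tested genes, few passed the limits in any comparison. In *tup1*, 1 gene was higher (*ZPS1*) and 0 were lower, where 7.27% of the 5927 genes tested were higher and 1.43% lower. In *cyc8*, 1 was higher (*ZPS1*) and 0 lower, against 12.5% and 1.91% of 5954 genes. In *tup1 cyc8*, 1 was higher (*ZPS1*) and 1 lower (*IZH2*), against 13.9% and 1.88% of 5942 genes. *cyc8* against *tup1* called 0 higher and 1 lower (*ZRT1*), against 4.65% and 1.43% of 5995 genes. *tup1 cyc8* against *cyc8* called 1 higher (*ZRT1*) and 0 lower, against 2.19% and 0.183%. *tup1 cyc8* against *tup1* called 0 in either direction, against 4.95% higher and 0.334% lower. The interaction called 0 higher and 1 lower (*ZPS1*), against 1.53% and 5.79%. With 7 genes, each of these counts is at most 1 gene, and nothing was read from it about the group. Libraries that did not overlap wt were counted with no test. In *tup1*, 2 of the 7 genes lay wholly above wt and 2 below, against 22.0% and 19.5% of genes. In *cyc8*, 1 lay above and 2 below, against 28.4% and 27.6%. In *tup1 cyc8*, 2 lay above and 2 below, against 30.4% and 32.1%. The 7 genes had a median log2 fold change of -0.03 in *tup1* and 0.06 in *cyc8*, with -0.06 in *tup1 cyc8*, against -0.03, -0.03 and -0.03 over all genes tested. The comparisons with wt share the wt libraries, wt replicate 3 included.

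Of the other zinc transporter genes, 1 passed both limits against wt. Of *ZRT3*, *ZRC1*, *COT1*, *MSC2*, *ZRG17*, *YKE4* and *FET4*, which act at the vacuole, the endoplasmic reticulum or the plasma membrane, 0 of 7 were called in *tup1*, and 1 was higher in *cyc8* and in *tup1 cyc8*, with 0 lower, against the same shares of all genes. This was *FET4*, whose product is a low-affinity iron transporter that also carries other metals. It had 305, 315 and 121 CPM in wt and 387, 318 and 261 in *tup1*, with 683, 755 and 761 in *cyc8* and 684, 619 and 551 in *tup1 cyc8*. *FET4* was above every wt library in *cyc8* and in *tup1 cyc8*, while *tup1* overlapped wt. Its log2 fold change was 1.57 in *cyc8* (SE 0.33, padj = 0.00829), 1.33 in *tup1 cyc8* (SE 0.32, padj = 0.00912) and 0.36 in *tup1* (padj = 0.452), and 1.19 in *cyc8* against *tup1* (padj = 0.00759). Each of the changes from wt was lost in 5 of the 6 leave-one-out fits, and both were kept without wt replicate 3, at 1.24 (padj = 0.000518) and 1.01 (padj = 0.000235). The difference between *cyc8* and *tup1* was lost in 8 of the 13 fits that left libraries out, with adjusted p values up to 0.0362. The vacuolar importer genes *ZRC1* and *COT1* and the exporter gene *ZRT3* had log2 fold changes of -0.39 to 0.79 over the 3 mutants. *ZRC1* changed by 0.54 in *tup1* (padj = 0.00802), short of the fold change limit. *COT1* lay above every wt library in each mutant, and *ZRT3* lay below every wt library in *cyc8*.

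Of 13 other genes known to be raised by Zap1 at low zinc, 5 were higher and 0 lower in each of the 3 mutants, where 7.27% (*tup1*), 12.5% (*cyc8*) and 13.9% (*tup1 cyc8*) of all genes tested were higher. The same 5 genes passed in every mutant: *VEL1* and *YOR387C*, a paralog pair strongly induced by zinc depletion, *ZRG8*, induced in zinc deficiency, *NRG2*, which encodes a repressor of glucose-repressed genes, and *PST1*, which encodes a GPI-anchored cell wall protein. *NRG2* had 23.7 to 40.4 CPM in wt and 61.5 to 71.5 in *tup1*, as well as 175 to 284 in *cyc8* and 151 to 157 in *tup1 cyc8*, with log2 fold changes of 1.05 (padj = 0.00378), 2.89 (padj = 0.000125) and 2.26 (padj = 2.73e-05). *PST1* had 137 to 189 CPM in wt and 358 to 504 over the mutants, and changed by 1.24, 1.57 and 1.40. *ZRG8* had 26.8 to 38.1 CPM in wt and 81.1 to 145 over the mutants, and changed by 1.52, 1.5 and 2.0. *VEL1* had at most 2.53 CPM and *YOR387C* at most 1.63 CPM in wt. They reached 20.9 and 11.9 CPM in the mutants, with log2 fold changes of 1.07 and 1.26 in *tup1*, 2.81 and 2.56 in *cyc8*, and 2.68 and 3.13 in *tup1 cyc8*. *VEL1* and *YOR387C* have 8.97% of their 31-base stretches repeated elsewhere, which makes the count of either copy uncertain. Leaving out a library ended the *tup1* call of *YOR387C* in 5, of *NRG2* in 4 and of *VEL1* in 3 of 6 fits. The other 8 genes (*ADH4*, *DPP1*, *TSA1*, *MNT2*, *MCD4*, *PIS1*, *EKI1* and *CKI1*) changed by -0.69 to 0.51. Of these, *EKI1*, *ADH4* and *MNT2* lay below every wt library in each mutant, and *MCD4* above. *EKI1* changed by -0.64 in *cyc8* (padj = 0.00836) and -0.69 in *tup1 cyc8* (padj = 0.00118), short of the fold change limit. Over all genes, 19.5% (*tup1*), 27.6% (*cyc8*) and 32.1% (*tup1 cyc8*) lay wholly below wt. None of the 5 genes that rose had a ZRE match with at most 1 mismatch in the 500 bases before its start codon. Of the other 8, 3 had one (*DPP1*, *MNT2* and *MCD4*), against 1.97% of all genes. With 2 mismatches allowed, *VEL1*, *YOR387C* and *ZRG8* also had a match, as did *TSA1*, against 19.3% of all genes. The contrast thus depends on the mismatches allowed, and a link between matches and changes was not tested.

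Of the genes known to fall at low zinc, *ADH1*, *ADH3* and *RAD27*, 0 of 3 were called in any comparison with wt. Their log2 fold changes ran from -0.60 to 0.64. *ADH1*, the main alcohol dehydrogenase gene and a zinc enzyme, had 5570 to 6870 CPM in wt and 3700 to 4580 in *cyc8*, a log2 fold change of -0.60 (padj = 0.014). A share of 18.4% of its 31-base stretches is repeated elsewhere in the genome.

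**Figure D5:**
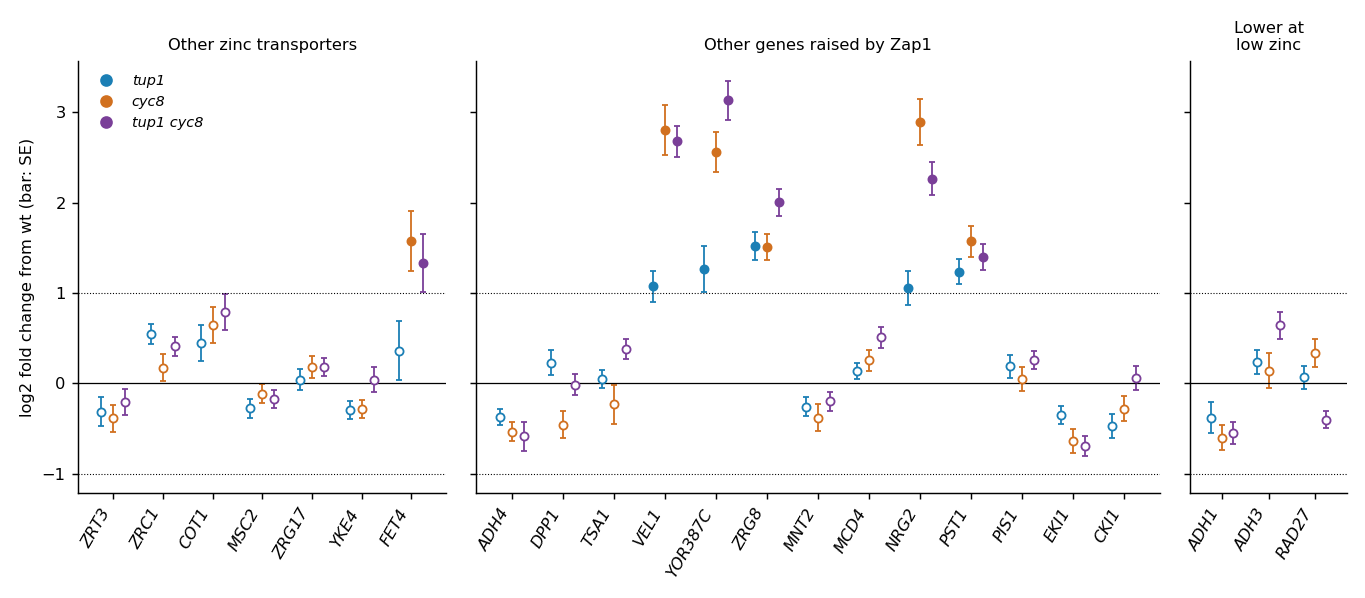
Log2 fold change from wt, with the standard error, of 7 other zinc transporter genes, 13 other genes raised by Zap1 and 3 genes that fall at low zinc, in *tup1* (blue), *cyc8* (orange) and *tup1 cyc8* (purple). Filled points passed both limits, which were 5 of the 13 Zap1 genes in every mutant and *FET4* in *cyc8* and *tup1 cyc8*.

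Among themselves, the 8 genes did not share a pattern over the 12 libraries. The closest pair was *ZRT2* and *ZAP1*, with a root mean square difference of 0.27 in centred log2(CPM + 1), and the farthest was *IZH2* and *ZPS1*, at 1.86. *ZRT1* and *ZPS1* differed by 1.79. The genes most like *ZRT1* were *YLL053C*, *ATF2* and *AQY2*, at 0.55, 0.56 and 0.60, against a median of 1.09 over all genes. *YLL053C* and *AQY2* overlap each other on the same strand, so reads there cannot be assigned to either alone. The genes most like *ZPS1* were *BIO2*, *YHR033W* and *PHM8*, at 0.91, 0.91 and 0.93, against a median of 1.65. Their likeness was more distant than that of *CYC3*, *LPX1* and *ADI1* to *IZH3*, which is a description over libraries of shared strains. Every member has 1 exon, overlaps no annotated gene and shares 0% of its 31-base stretches with other places in the genome.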

How the data were processed

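Per the labels and the study's methods, the authors trimmed reads from strand-specific, rRNA-depleted libraries with Trimmomatic 0.36, aligned them with STAR 2.5.2b and counted reads per gene with featureCounts of Subread 1.5.2. The strand setting of the counting is not given in the sources used here, and neither is the assembly release. The deposited raw counts, not normalised, were used. The authors' normalised tables and their fold changes and p-values were not used. All 3 tables hold the same wt libraries. A line without a gene name held 0.0647% to 0.340% of a library and was left out. Of 6400 genes named, 6082 matched the R64 annotation by symbol or systematic name.

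The counts were filtered (filterByExpr), scaled with TMM and tested with edgeR 4.0.16 (limma 3.58.1, R 4.3.3), each mutant with wt in 6 libraries, and the interaction and the contrasts among mutants in all 12. The study's limits were kept, an absolute log2 fold change of 1 or more and an adjusted p (Benjamini-Hochberg) of 0.01 or less. The standard error was taken as the absolute log2 fold change over the root of F. Patterns were compared on log2(CPM + 1), a pseudocount of 1. Python 3.11.15 with pandas 2.3.3, numpy 2.4.6 and matplotlib 3.10.9 was used. The test was checked on simulated data.

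The text names the 8 members, the deleted and marker genes, each listed gene called against wt, and the 3 genes most like *IZH3*, *ZRT1* and *ZPS1*. *STE2*, *MFA1*, *MFA2* and *STE3* were named as mating type markers. The members and lists were chosen with earlier results of these data known. Alternatives changed the test (DESeq2 1.42.0), the scaling, the filter, the p limit (0.05), the fit and the libraries.

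Residuals of libraries with the same replicate number correlated for *tup1* and *tup1 cyc8* (r = 0.171 to 0.343 in the 3 pairs, against -0.318 to 0.0938 in the 6 pairs with other numbers), so those libraries were taken as paired. This pairing comes from the data and not from the labels. Residuals are differences from the strain mean, so they cancel within a strain. Higher values in same-number pairs therefore pull down the values in pairs with other numbers. The contrast is in part arithmetic and cannot by itself establish a pairing. *tup1* and *tup1 cyc8* also had the highest same-number values of all pairs of strains, so they were picked out from the same data. For the other strains, not every pair passed 0.1, and they were not taken as paired. The same-number pairs of *cyc8* and *tup1 cyc8* nevertheless lay above the others too, at r = 0.0322 to 0.0943 against -0.0872 to -0.00256. That contrast has the same limit.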

Additional observations from a re-analysis of the deposited data

Results flagged for a closer look

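Of the 7 tested members, 1 had a double mutant change that differed from the sum of the single mutant changes past the limits. The difference for *ZPS1* was -5.54 on the log2 scale (standard error 0.82, edgeR adjusted p = 0.000418). Of the other genes raised by Zap1, 3 of 13 did so. The difference was -1.71 for *NRG2* (adjusted p = 0.000772), -1.44 for *PST1* (adjusted p = 0.000219) and -1.05 for *ZRG8* (adjusted p = 0.00245), where 5.79% of all genes tested were lower in this way. Leaving out a library ended the call of *ZRG8* in 2 fits.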

How the results depend on the processing

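No member changed direction in any called value. Over the 7 tested members, 7 comparisons and all alternatives, 824 of 875 values stayed on their side of the limits, 23 lost and 28 gained a call. With all libraries kept, these settings moved a count of members called. Scaling to library size only, which shifted the median of all genes by -0.157 (*tup1*), -0.381 (*cyc8* against wt) and -0.498 (*tup1 cyc8* against wt), called 1, 1 and 2 members lower in these comparisons and 1 lower in *tup1 cyc8* against *tup1*. The latter was also 1 with DESeq2, at an adjusted p of 0.05 and, in fits added after the data were seen, in the 6 libraries of these strains without (1) and with (1) a replicate block. The adjusted p of 0.05 called 2 members higher in *tup1 cyc8*. In that comparison the fit of all 12 libraries called *ZRT1* (1.62, padj = 0.00439) and lost *ZPS1* (1.79, padj = 0.0206).

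Pairs of libraries with the same number, 18 over all strains, had a median r of 0.0504, and outside *tup1* with *tup1 cyc8* they had -0.14 to 0.241, so the other strains were not taken as paired. The replicate block called 0 members higher in *cyc8* (*ZPS1* 3.05, padj = 0.0268) and 2 in *tup1 cyc8* (*ZRT1* 1.86, padj = 0.00396). It changed no other member's call.

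Without single libraries, members called higher numbered 1 to 1 (*tup1*), 0 to 1 (*cyc8* against wt) and 1 to 2 (*tup1 cyc8* against wt), and members called lower 0 to 2, 0 to 2 and 0 to 2. For *cyc8* against *tup1* these were 0 to 1 higher and 0 to 1 lower, for *tup1 cyc8* against *cyc8* 0 to 1 and 0 to 2, for *tup1 cyc8* against *tup1* 0 to 0 and 0 to 1, and for the interaction 0 to 1 and 1 to 1. Without wt replicate 3 and *cyc8* replicate 1 together, chosen after seeing the data, *ZRT1* was lower in *cyc8* than in wt by a log2 fold change of -1.21 (padj = 3.87e-07).

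Over all genes, library size scaling moved the genes called lower to 367 in *cyc8* and 753 in *tup1 cyc8* (from 114 and 112). It gave 174 higher and 152 lower in *cyc8* against *tup1*, 175 higher and 180 lower in *tup1 cyc8* against *tup1*, and 21 lower in *tup1 cyc8* against *cyc8* (25 with DESeq2, 27 at an adjusted p of 0.05, 11 in the main test). Without *cyc8* replicate 1, 212 genes were lower in *cyc8*, 164 lower in *cyc8* against *tup1*, 66 lower in *tup1 cyc8* against *cyc8* and 142 had a higher interaction. The causes were not tested.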
